A study of Homo sapiens with 18 samples.

Results

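The 9 genes described here encode transcription factors of myeloid development: SPI1, CEBPA, CEBPB, CEBPE, RUNX1, GFI1, IRF8, MYB and KLF4. They were chosen by name, and all 9 were found among the 23713 rows of the deposited table. All cells were MOLM-13, a cultured line from a human acute myeloid leukaemia of monocytic type that carries a KMT2A (MLL) to MLLT3 fusion. The 18 samples fall into 6 groups of 3: dTRIM24, IACS-9571 or DMSO for 24 h, and the same 3 treatments for 4 h. dTRIM24 is a degrader that links a bromodomain ligand to a ligand of the VHL ubiquitin ligase, and IACS-9571 is a ligand of the TRIM24 and BRPF1 bromodomains without the VHL part. DMSO is the solvent, and all groups share the line and its culture in RPMI with serum. The sources used here give no dose, so the compounds cannot be set side by side at matched doses, and the 3 samples of a group are not said to be independent cultures. The treatment protocol in the labels gives 24 h for every sample, whereas titles and time points give 4 h or 24 h, and the titles were followed. A single leukaemic line is a model of one disease background only.

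The table gives 1 mean per gene and group in FPKM, a read count scaled by transcript length and by library size. Whether the authors then rescaled the columns to the spike-ins is not stated in the labels. Because the single libraries were not analysed here, the values carry no replicate spread, the comparisons are descriptions without a test, and read depth is unknown. As a yardstick, 25 ERCC spike-ins (synthetic control RNAs put into the samples) differed between group means with an SD between 0.11 and 0.22 in log2(FPKM + 1). That is the spread of single RNAs between means and does not replace a replicate error. Differences are given on the log2(FPKM + 1) scale, where low genes differ by less than their FPKM ratio. The group with the lowest summed FPKM was IACS-9571 at 24 h (771830), and the highest was DMSO at 4 h (1058351), while the median of the 25 spike-ins lay between 29.7 and 31.7 FPKM in all groups. A difference shared by most genes therefore depends on which of these is taken as equal, and with equal totals the all-gene median of dTRIM24 against DMSO at 24 h is 0.07, beside 0.26 as deposited. Of the 9 factors, 8 reached 1 FPKM in at least 1 group and were compared with the other genes that did, 11054 in all. CEBPE did not. In bulk RNA, fewer cells of a type and less RNA per cell cannot be told apart. Of 8 markers of the line, 7 reached 1 FPKM, and the cell surface integrin gene ITGAX did not. None of 8 erythroid and megakaryocyte markers reached it (summed level 0.756 to 0.898 FPKM). Of 8 lymphoid markers 2 did (summed level 21.9 to 38.3 FPKM, mostly from NKG7), and of 8 epithelial and stromal markers 3 did (31.4 to 42.6 FPKM, mostly KRT18). The lymphoid genes CD3E and CD3G and the collagen gene COL3A1 stayed near the lowest values of the table. In the same lists, the lymphoid marker PAX5 had 3.70 to 5.79 FPKM and the stromal marker PECAM1 6.63 to 9.97 FPKM. Whether these markers play a part in the results was not tested.

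Myeloid identity is set by a small network of factors that bind together at enhancers. PU.1, the ETS-family protein encoded by SPI1, opens sites in progenitors, and C/EBP alpha, encoded by CEBPA, directs them to the granulocyte and monocyte lineages. RUNX1 and MYB act in stem and progenitor cells, and MYB sustains the growth of leukaemias with KMT2A fusions. IRF8 and KLF4 favour monocytes, GFI1 and CEBPE favour neutrophils, and CEBPB acts in monocytes and in granulocyte production under stress.

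The sequences before the transcription start are shown for the factors with the highest (IRF8, CEBPA) and the lowest (CEBPE) levels, to set the level beside the base composition of the promoter. They are RefSeq windows on build GRCh38.p14, 250 bases ending just before the start, read 5′ to 3′ on the strand of the gene. The build differs from the hg19 build of the expression values, and no coordinate was carried between them. Capitals mark a PU.1-type core (GAGGAA), a RUNX core (TGTGGT) or a TATA box (TATAAA), searched on both strands. The windows are chr16:85902580-85902829 on the plus strand for IRF8, chr19:33302535-33302784 on the minus strand for CEBPA and chr14:23119256-23119505 on the minus strand for CEBPE.
IRF8: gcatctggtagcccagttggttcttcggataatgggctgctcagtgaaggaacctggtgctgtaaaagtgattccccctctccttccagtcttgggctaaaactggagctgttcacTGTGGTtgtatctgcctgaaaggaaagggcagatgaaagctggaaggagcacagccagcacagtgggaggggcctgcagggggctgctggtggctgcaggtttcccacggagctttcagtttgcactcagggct
CEBPA: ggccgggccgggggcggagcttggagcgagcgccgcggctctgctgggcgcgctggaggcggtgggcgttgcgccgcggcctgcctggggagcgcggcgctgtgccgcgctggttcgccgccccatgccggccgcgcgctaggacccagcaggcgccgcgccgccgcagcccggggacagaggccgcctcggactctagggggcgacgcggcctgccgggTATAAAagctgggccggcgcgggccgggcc
CEBPE: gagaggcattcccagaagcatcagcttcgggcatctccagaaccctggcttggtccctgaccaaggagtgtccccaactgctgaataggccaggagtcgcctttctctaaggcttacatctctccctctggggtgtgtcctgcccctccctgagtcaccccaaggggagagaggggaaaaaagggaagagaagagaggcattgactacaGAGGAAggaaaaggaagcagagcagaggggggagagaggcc
The IRF8 window, the first of 2 listed for the gene, has 1 RUNX core, the CEBPA window 1 TATA box and the CEBPE window 1 PU.1-type core. Such letters are common: 23.6% of all 35116 windows of this length hold GAGGAA, 10.98% TGTGGT and 10.7% TATAAA, so a match is a description and not a site. The GC content of the window was 55.6% for IRF8, 81.2% for CEBPA and 57.2% for CEBPE. Among the other factors with a window, RUNX1 and KLF4 had 1 GAGGAA each, and 1 of the 2 CEBPB windows had a TATA box. GFI1, with 3 windows, had 1 GAGGAA and 1 TGTGGT in separate windows. For SPI1 no window is shown.

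The factors covered a range of levels from near the lowest values of the table to the upper end of the compared genes, and their order was the same in 5 of 6 groups. IRF8 was highest in all 6 groups (139 to 201 FPKM), and 95.6% of compared genes had a lower mean. CEBPA (115 to 159 FPKM) and MYB (112 to 134 FPKM) came next, and they changed places with dTRIM24 at 4 h, where MYB had 130.5 FPKM and CEBPA 128 FPKM. SPI1 followed in every group (51.6 to 80.1 FPKM), then GFI1 (31.0 to 38.0 FPKM) and RUNX1 (24.3 to 30.04 FPKM). CEBPB (3.30 to 5.01 FPKM) and KLF4 (2.61 to 3.76 FPKM) lay an order of magnitude lower, and CEBPE was last. With no replicate spread, whether neighbours in this order differ, such as CEBPA and MYB or CEBPB and KLF4, was not tested.

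**Figure D1:**
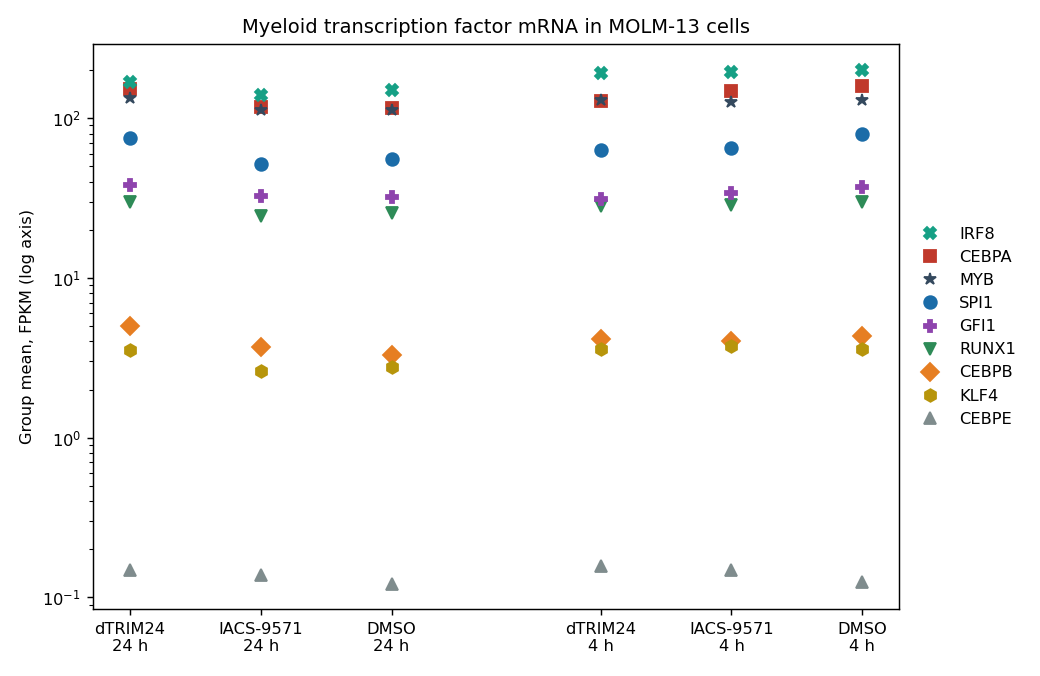
Group mean of each of the 9 factors in FPKM (log axis) in the 24 h groups (left) and the 4 h groups (right), with dTRIM24, IACS-9571 and DMSO from left to right. Each point is the authors' mean of a group with no error available. IRF8 lies at 139 to 201 FPKM and CEBPE at 0.122 to 0.156 FPKM, and the order changes only where MYB and CEBPA meet with dTRIM24 at 4 h.

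SPI1 had the widest span of the 9 factors, 1.55 times between its highest and lowest group. At 24 h it had 75.5 FPKM with dTRIM24, 51.6 FPKM with IACS-9571 and 55.4 FPKM with DMSO. The 4 h means were 63.0 FPKM with dTRIM24, 65.4 FPKM with IACS-9571 and 80.1 FPKM with DMSO. So the DMSO mean was the highest of the 3 at 4 h, and the dTRIM24 mean the highest at 24 h.

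CEBPA, like SPI1, had its highest mean in DMSO at 4 h. The 24 h means were 151 FPKM with dTRIM24, 118 FPKM with IACS-9571 and 115 FPKM with DMSO. At 4 h CEBPA had 128 FPKM with dTRIM24, 148 FPKM with IACS-9571 and 159 FPKM with DMSO. The 24 h means of IACS-9571 and DMSO nearly coincided, and at 4 h dTRIM24 was lowest and DMSO highest. The antisense row CEBPA-AS1 had 1.03 to 1.44 FPKM, and since strand handling is not given in the sources used here, reads of the pair cannot be told apart.

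Of the monocyte factors, IRF8 had 169 FPKM with dTRIM24, 139 FPKM with IACS-9571 and 151 FPKM with DMSO at 24 h. Its 4 h means were 190.5 FPKM with dTRIM24, 193 FPKM with IACS-9571 and 201 FPKM with DMSO. All 3 means of 24 h lay below all 3 means of 4 h. KLF4, a zinc finger factor of monocyte differentiation, had 3.53 FPKM with dTRIM24, 2.61 FPKM with IACS-9571 and 2.77 FPKM with DMSO at 24 h. At 4 h its means were 3.602 FPKM with dTRIM24, 3.76 FPKM with IACS-9571 and 3.603 FPKM with DMSO, and the dTRIM24 mean at 24 h stayed close to these.

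Of the neutrophil factors, GFI1, a zinc finger repressor, had 38.0 FPKM with dTRIM24, 32.6 FPKM with IACS-9571 and 32.1 FPKM with DMSO at 24 h. GFI1 at 4 h had 31.0 FPKM with dTRIM24, 33.9 FPKM with IACS-9571 and 37.1 FPKM with DMSO. Its lowest and its highest mean were thus both dTRIM24 groups. CEBPE, which drives the late granule genes of neutrophils, had 0.149 FPKM with dTRIM24, 0.139 FPKM with IACS-9571 and 0.122 FPKM with DMSO at 24 h. The 4 h means of CEBPE were 0.156 FPKM with dTRIM24, 0.149 FPKM with IACS-9571 and 0.125 FPKM with DMSO. The table has a floor rather than zeros: the same value stands in 6066 rows of a column, 0.0914 to 0.105 FPKM depending on the group. CEBPE lay just above it, so it gets no fold change. LTF, CAMP and LCN2, granule genes known to need C/EBP epsilon, likewise stayed under 1 FPKM in all 6 groups.

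CEBPB had 5.01 FPKM with dTRIM24, 3.71 FPKM with IACS-9571 and 3.30 FPKM with DMSO at 24 h. Its 4 h means were 4.12 FPKM with dTRIM24, 4.00 FPKM with IACS-9571 and 4.33 FPKM with DMSO. The 4 h means lay close together, and at 24 h dTRIM24 was highest and DMSO lowest.

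Of the progenitor factors, MYB spanned least of all 9 genes, 1.19 times, and RUNX1 spanned 1.23 times, close to GFI1. MYB had 134 FPKM with dTRIM24, 112 FPKM with IACS-9571 and 112 FPKM with DMSO at 24 h. The 4 h means of MYB were 130.5 FPKM with dTRIM24, 126 FPKM with IACS-9571 and 131 FPKM with DMSO. RUNX1, the DNA-binding partner of CBFB, had 29.7 FPKM with dTRIM24, 24.3 FPKM with IACS-9571 and 25.6 FPKM with DMSO at 24 h. RUNX1 at 4 h had 28.2 FPKM with dTRIM24, 28.5 FPKM with IACS-9571 and 30.04 FPKM with DMSO. For both genes the IACS-9571 and DMSO means of 24 h stood below the other 4 means. The same held for SPI1, CEBPA, CEBPB, IRF8 and KLF4, though not for GFI1. The median of all compared genes was also lowest in these groups, 9.87 FPKM with IACS-9571 and 9.96 FPKM with DMSO, beside 12.1 to 12.4 FPKM in the others.

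The 4 h comparisons show the early state after each compound. With dTRIM24 none of the 8 factors was past 2-fold from DMSO, where 0.688% of all compared genes were, and none was past 1.5-fold (1.02% of all). All 8 lay below DMSO, as did 52.2% of all genes, while 47.8% lay above. SPI1 differed by -0.34, CEBPA by -0.32 and GFI1 by -0.25, each past the spike-in SD of 0.21, and the other 5 lay between -0.09 and 0.00. Only 2.24% of compared genes lay further below DMSO than SPI1. The median of the 8 was -0.08, beside -0.01 over all genes. The direction of the smaller differences depends on the scaling: with columns set to equal totals 4 of the 8 lay above DMSO. SPI1, CEBPA, GFI1 and RUNX1 lay below DMSO under every scaling tried and with a trend on transcript GC content taken out. RUNX1 stood at only -0.0046 with equal totals. Other pseudocounts and filters cannot change the sign of a difference, so they are no check of it.

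With IACS-9571 at 4 h none of the 8 was past 2-fold (0.289% of all genes) or 1.5-fold (0.660%). Below DMSO lay 7 of 8, as did 49.9% of all genes. KLF4 was above DMSO by 0.05, and 50.1% of all genes were above it. SPI1 was again lowest, at -0.29, and 0.995% of compared genes lay further below DMSO. GFI1 differed by -0.13 and CEBPA by -0.11, near the spike-in SD of 0.11. The median of the 8 was -0.08, beside 0.00 over all genes. Both compounds were set against the same DMSO mean, so the low SPI1 value in both is not 2 separate observations. In dTRIM24 set directly against IACS-9571 at 4 h, none of the 8 was past 2-fold (0.597% of all genes) or 1.5-fold (0.751%), and 6 lay below IACS-9571, as did 57.4% of all genes, and 2 above, as did 42.6%. CEBPA had the lowest difference, -0.21, within the spike-in SD of 0.22, and SPI1 differed by -0.05.

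At 24 h the dTRIM24 means of most genes stood above DMSO, and so did those of the factors. None of the 8 was past 2-fold (0.199% of all genes) or 1.5-fold (4.98%), and all 8 lay above DMSO, as did 96.8% of all genes, with 3.23% below. The differences were 0.48 for CEBPB, 0.44 for SPI1, 0.39 for CEBPA, 0.27 for KLF4, 0.25 for MYB, 0.24 for GFI1, 0.21 for RUNX1 and 0.16 for IRF8. Their median was 0.26, and that of all genes 0.26. Relative to that median CEBPB stood at 0.23, SPI1 at 0.18 and CEBPA at 0.13, and IRF8 at -0.10. As a plain ratio of FPKM, CEBPB was at 1.52 times DMSO (5.01 against 3.30 FPKM). The share of all genes past 1.5 as a plain ratio was not computed. On the log2(FPKM + 1) scale 87.3% of compared genes had a lower difference than CEBPB.

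With IACS-9571 at 24 h the factors lay close to DMSO. None of the 8 was past 2-fold (0.172% of all genes) or 1.5-fold (0.452%), and 5 lay below DMSO, as did 57.4% of all genes, and 3 above, as did 42.6%. CEBPB was highest at 0.13, which barely passed the spike-in SD of 0.12, and IRF8 lowest at -0.11. In dTRIM24 against IACS-9571 at 24 h none was past 2-fold (0.217% of all genes) or 1.5-fold (3.21%), and all 8 lay above IACS-9571, as did 98.4% of all genes, with 1.56% below. SPI1 had the highest difference, 0.54, and the other 7 lay between 0.21 and 0.35, beside a median of 0.28 over all genes. Relative to that median SPI1 stood at 0.27, past the spike-in SD of 0.13, and 94.7% of compared genes had a lower difference. The other 7 lay within that SD. The share of all genes past it was not computed. The compounds differ in structure by the VHL ligand part. Every factor stood closer to IACS-9571 once a trend of the differences on transcript GC content was taken out (SPI1 at 0.07). That step also removes the shift shared by all genes. Relative to the median of all genes alone, MYB stood at -0.02 and RUNX1 at 0.004.

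**Figure D2:**
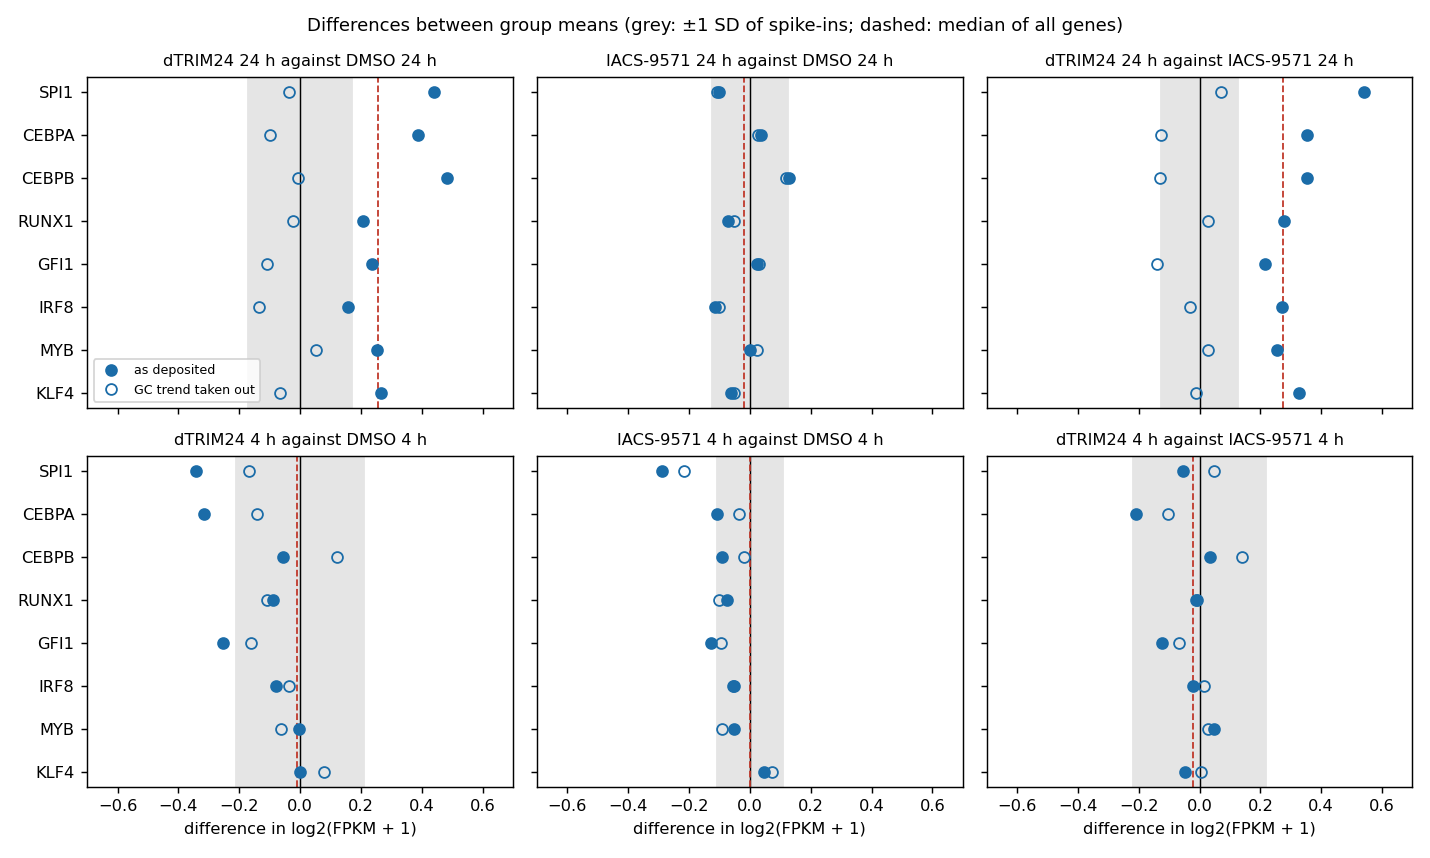
Differences in log2(FPKM + 1) of the 8 compared factors between group means at 24 h (top) and 4 h (bottom). Filled points are values as deposited, open points are values after removal of a GC trend over all genes, the grey band is 1 SD of the spike-ins on either side of 0, and the dashed line is the median of all genes. SPI1 lies at -0.34 and -0.29 against DMSO at 4 h and at 0.54 between the compounds at 24 h.

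Transcripts of the factors differ in GC content. In the longest coding transcript of GENCODE release 29, GC content was 66.2% for CEBPB, 65.9% for CEBPA, 65.1% for SPI1, 56.1% for GFI1, 55.0% for KLF4, 52.0% for IRF8, 47.1% for RUNX1 and 43.9% for MYB, beside a median of 48.4% over all genes with a value. Across genes, which are not independent replicates, differences ran with GC content in the dTRIM24 comparisons with DMSO (Spearman rho 0.61 at 24 h and -0.73 at 4 h). The part of GC content in the results was not tested beyond the values that follow. The trend is taken out together with its constant term, so the step also removes the shift shared by all genes. With a cubic trend on GC content taken out, the 24 h differences of dTRIM24 from DMSO were -0.04 for SPI1, -0.10 for CEBPA and -0.01 for CEBPB, and all 8 lay between -0.13 and 0.05. At 4 h the same step left SPI1 at -0.17, GFI1 at -0.16 and CEBPA at -0.14 with dTRIM24, all within the spike-in SD of 0.21. With IACS-9571 at 4 h, where rho was -0.39, it left SPI1 at -0.22, still past the spike-in SD of 0.11, with 1.84% of genes further below. CEBPB at 4 h with dTRIM24 stood at -0.06 as deposited and at 0.12 with the trend taken out, away from CEBPA and SPI1 of like GC content.

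**Figure D3:**
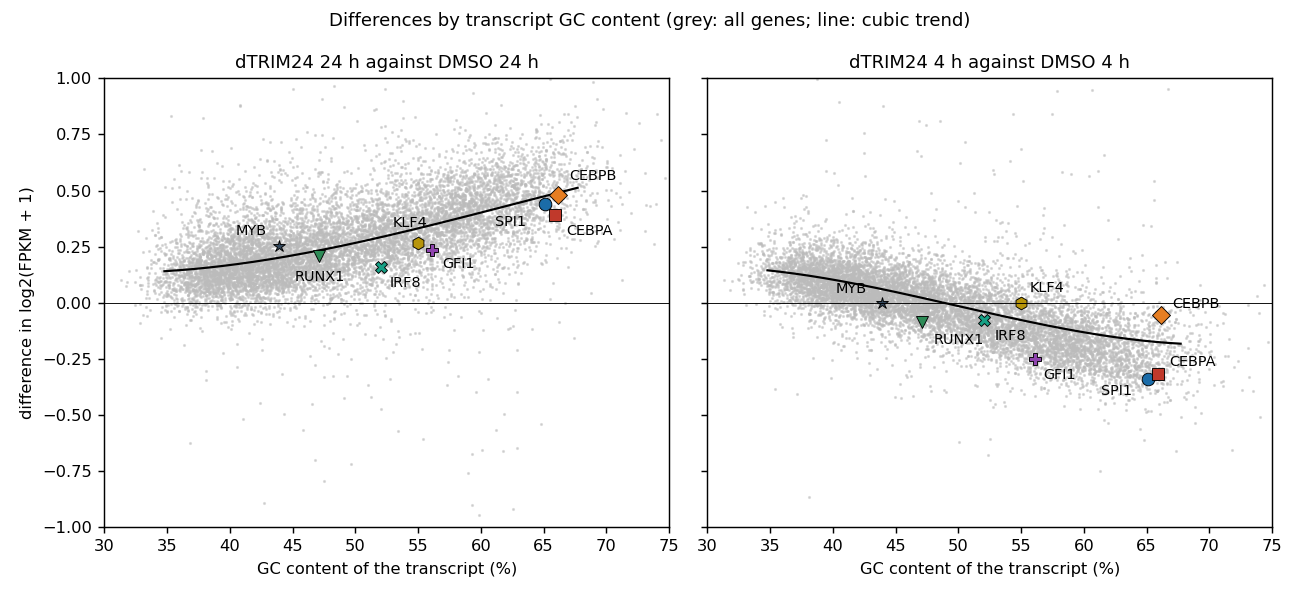
Difference in log2(FPKM + 1) of dTRIM24 from DMSO at 24 h (left) and 4 h (right) against transcript GC content in percent. Grey points are all compared genes with a GC value (those outside the axes are not drawn), the line is the cubic trend over them, and the named symbols are the 8 factors. At 24 h CEBPB, SPI1 and CEBPA lie near the line at its high end, and at 4 h SPI1, CEBPA and GFI1 lie below it.

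Between 24 h and 4 h IRF8 and KLF4 lay below the median of all genes in each treatment, IRF8 further than KLF4. In DMSO all 8 lay lower at 24 h than at 4 h, as did 95.0% of all genes (5.05% lay higher), by a median of -0.30 beside -0.22 over all genes. None was past 2-fold (0.217% of all genes) or 1.5-fold (4.01%), and SPI1 was lowest at -0.52. In IACS-9571 all 8 lay lower too, as did 97.0% of all genes (3.04% lay higher), and none was past 2-fold (0.443%) or 1.5-fold (2.50%). In dTRIM24 6 of 8 lay higher at 24 h, as did 61.4% of all genes, and 2 lower, as did 38.6%, and none was past 2-fold (0.669%) or 1.5-fold (1.18%). IRF8 was lower at 24 h in each treatment, with differences of -0.18 in dTRIM24, -0.47 in IACS-9571 and -0.41 in DMSO. Relative to the median of all genes these were -0.22, -0.21 and -0.19, beside spike-in SDs of 0.19, 0.17 and 0.19. In the same order 6.41%, 7.32% and 17.8% of compared genes lay lower than IRF8. KLF4 stood at -0.07, -0.14 and -0.07 relative to the median. IRF8 was lower at 24 h in each treatment under every scaling tried and with the GC trend taken out. Other pseudocounts and filters cannot change the sign of a difference. In dTRIM24, where the spike-in SD was 0.19, SPI1 stood at 0.21, CEBPA at 0.20 and CEBPB at 0.18 relative to the median of all genes. In DMSO SPI1 stood at -0.30 and CEBPA at -0.24 relative to it, further below than IRF8. In IACS-9571 SPI1 stood at -0.08, CEBPA at -0.06 and CEBPB at 0.17. GFI1 differed by 0.29 in dTRIM24, -0.05 in IACS-9571 and -0.20 in DMSO, and by 0.24, 0.21 and 0.02 relative to the median of all genes in the same order. With the GC trend taken out the 8 factors lay between -0.23 and 0.19 in dTRIM24, between -0.19 and 0.31 in IACS-9571 and between -0.14 and 0.17 in DMSO, with IRF8 lowest in all 3.

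Ratios of factors within a group mean do not change when a whole column is multiplied, though a GC trend still enters them. They were chosen after the values were seen. The ratio of IRF8 to GFI1, the monocyte and the neutrophil regulator, was 4.44 with dTRIM24, 4.27 with IACS-9571 and 4.70 with DMSO at 24 h. At 4 h it was 6.15 with dTRIM24, 5.71 with IACS-9571 and 5.43 with DMSO, so the 3 ratios of 24 h lay below the 3 of 4 h. The ratio of SPI1 to MYB was 0.566 with dTRIM24, 0.461 with IACS-9571 and 0.495 with DMSO at 24 h. At 4 h it was 0.483 with dTRIM24, 0.518 with IACS-9571 and 0.612 with DMSO. SPI1 to CEBPA stayed between 0.437 and 0.503, with both IACS-9571 groups lowest (0.437 at 24 h and 0.443 at 4 h).

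**Figure D4:**
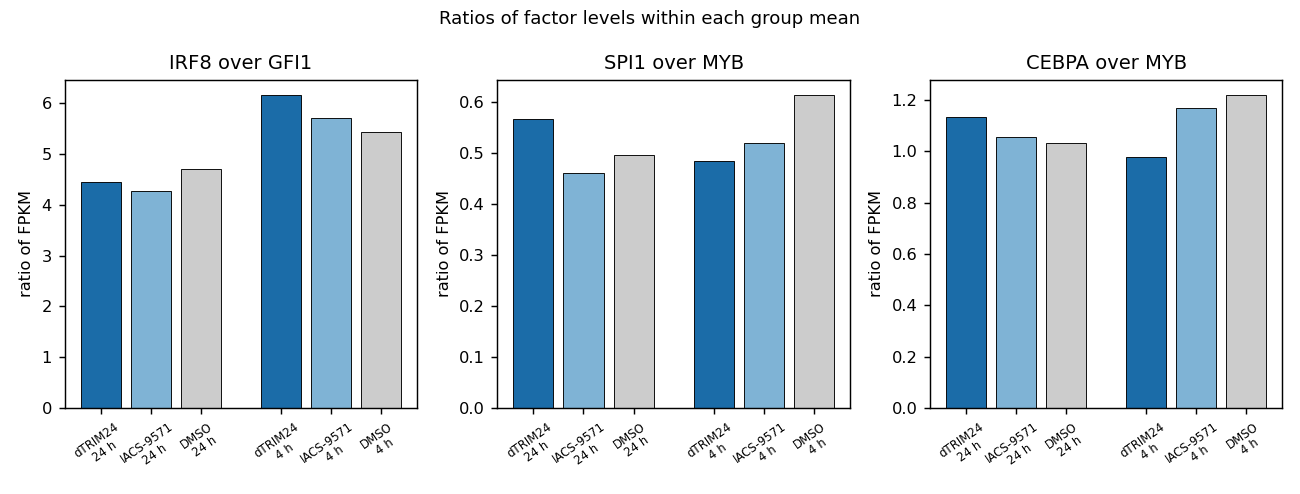
Ratios of FPKM between 2 factors within each group mean, for IRF8 over GFI1, SPI1 over MYB and CEBPA over MYB, in the 24 h groups (left bars) and 4 h groups (right bars). Bars start at 0 and have no error available. IRF8 over GFI1 is 4.27 to 4.70 at 24 h and 5.43 to 6.15 at 4 h.

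The genes most like a factor were those with the smallest distance between centred log2(FPKM + 1) values over the 6 group means, among other genes of at least 5 FPKM (8351 for KLF4, 8350 for the rest). SPI1 lay nearest to CHST13, CLPP and FUT7 (distances 0.05, 0.06 and 0.06). CEBPA lay nearest to USP19, NAB2 and MOGS, CEBPB to COQ9, DHX33 and NFIX, and IRF8 to CERS5, GOT1 and TBL1X. KLF4 lay nearest to GID8, UBQLN2 and AP3S2. Such patterns were common: 850 genes lay within 0.2 of SPI1, 794 of IRF8, 1016 of CEBPB, 1730 of CEBPA and 3895 of KLF4. The distance rests on 6 means that share column scale and GC trend. RUNX1, GFI1 and MYB spanned less than 0.3 and were not searched.

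The partners, paralogs and known targets of the factors were read from 13 lists that overlap in part, 95 genes of which 70 were compared. Over the 70, 53 lay below and 17 above DMSO with dTRIM24 at 4 h (median -0.09), where 52.2% of all genes lay below. With IACS-9571 at 4 h 41 lay below and 29 above (median -0.03), where 49.9% of all genes lay below. At 24 h 68 lay above and 2 below DMSO with dTRIM24 (median 0.25), near the 96.8% of all genes above it. With IACS-9571 at 24 h 21 lay above and 49 below (median -0.05), where 57.4% of all genes lay below. None was past 2-fold in any of the 9 comparisons, where 0.172% to 0.688% of all genes were. Against DMSO none was past 1.5-fold at 4 h with dTRIM24 (1.02% of all genes) or IACS-9571 (0.660%), or at 24 h with IACS-9571 (0.452%). With 70 genes, the absence of calls is near these shares. With dTRIM24 at 24 h 4 of 70 were past 1.5-fold from DMSO, all of them higher, next to 4.98% of all genes in either direction. These were CEBPD, the delta member of the C/EBP family (15.98 FPKM with dTRIM24 and 10.2 FPKM with DMSO, a difference of 0.60), LYL1, a bHLH progenitor factor (20.02 FPKM with dTRIM24 and 12.9 FPKM with DMSO, a difference of 0.59), ID1, an inhibitor of bHLH factors (3.59 FPKM with dTRIM24 and 1.97 FPKM with DMSO, 0.63), and the growth regulator MYC (259 FPKM with dTRIM24, 168 FPKM with DMSO, 0.62). With the GC trend taken out CEBPD stood at 0.06, LYL1 at 0.06, ID1 at 0.25 and MYC at 0.30. DDIT3, a stress-induced C/EBP family member, had 19.3 FPKM with dTRIM24, 13.4 FPKM with IACS-9571 and 12.6 FPKM with DMSO at 24 h. Its difference between dTRIM24 and DMSO was 0.58, beside a median of 0.26 over all genes, or 0.31 with the trend taken out.

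Target genes of the C/EBP factors lay lower with both compounds at 4 h. Of 11 listed genes 7 were compared. All 7 lay below DMSO with dTRIM24, as did 52.2% of all genes (median -0.29, beside -0.01 over all genes). With IACS-9571 all 7 lay below it too, as did 49.9% of all genes (median -0.24, beside 0.00). With the GC trend taken out the medians were -0.17 and -0.18. PRTN3, a protease of neutrophil granules, had 317 FPKM with dTRIM24, 314 FPKM with IACS-9571 and 430.4 FPKM with DMSO at 4 h. Both comparisons use the same DMSO mean. With IACS-9571 at 24 h all 7 lay below DMSO as well, as did 57.4% of all genes (median -0.22, beside -0.02 over all genes, and -0.20 with the trend taken out). CEBPA differed there by 0.04 and CEBPB by 0.13. With dTRIM24 at 24 h 6 of 7 lay above DMSO (median 0.38, beside 0.26 over all genes, and -0.07 with the trend taken out), where 96.8% of all genes did. MPO, the myeloperoxidase of granules, had 7.43 FPKM with dTRIM24, 3.55 FPKM with IACS-9571 and 5.13 FPKM with DMSO at 24 h.

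Most target genes of PU.1 lay below DMSO at 4 h, by medians within the spike-in SD. SPI1 lay below the same DMSO mean, and whether its targets follow it was not tested. Of 14 listed genes 10 were compared, and 9 lay below DMSO with dTRIM24, as did 52.2% of all genes (median -0.13, beside -0.01 over all genes, or -0.04 without the GC trend). With IACS-9571 8 lay below, as did 49.9% of all genes (median -0.08, beside 0.00, and -0.06 with the trend taken out). At 24 h 9 of 10 lay above DMSO with dTRIM24, as did 96.8% of all genes (median 0.24, beside 0.26, and -0.13 with the trend taken out). With IACS-9571 at 24 h 6 of 10 lay below, as did 57.4% of all genes (median -0.06, beside -0.02). ITGB2, the shared beta chain of leukocyte integrins, had 73.7 FPKM with dTRIM24, 78.7 FPKM with IACS-9571 and 90.7 FPKM with DMSO at 4 h. CD14, CYBB, TLR4 and MSR1, genes of mature monocytes and macrophages, stayed under 1 FPKM in all groups. FCGR1A, the high-affinity receptor for IgG and the 1 gene of 10 not above DMSO with dTRIM24 at 24 h, had 31.1 FPKM with dTRIM24, 23.8 FPKM with IACS-9571 and 32.7 FPKM with DMSO at 24 h.

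The other lists held no gene past 1.5-fold against DMSO apart from those named. Of all genes 1.02% were past it with dTRIM24 and 0.660% with IACS-9571 at 4 h. At 24 h the shares were 4.98% and 0.452%. Among zinc finger and immediate early factors of monocytes, JUNB had 33.2 FPKM with dTRIM24, 36.1 FPKM with IACS-9571 and 42.2 FPKM with DMSO at 4 h, whereas KLF6 had 6.82 FPKM with dTRIM24, 7.81 FPKM with IACS-9571 and 6.17 FPKM with DMSO. EGR1, EGR2, EGR3 and JUN stayed under 1 FPKM. Of the other interferon regulatory factors, 6 of 7 were compared. All 6 lay below DMSO with dTRIM24 at 4 h, as did 52.2% of all genes (median -0.17, or -0.05 with the GC trend taken out). At 24 h all 6 lay above it, as did 96.8% of all genes (median 0.23, or -0.08). IRF7, an interferon-induced member, had 5.30 FPKM with dTRIM24, 2.67 FPKM with IACS-9571 and 3.37 FPKM with DMSO at 24 h. Of 9 other ETS factors 8 were compared, and all 8 lay above DMSO with dTRIM24 at 24 h (median 0.23, or -0.02 with the trend taken out), as did 96.8% of all genes. At 4 h 6 of the 8 lay below it (median -0.08, or -0.10), as did 52.2% of all genes. The farthest below at 4 h was ELF4, with 15.07 FPKM with dTRIM24, 17.2 FPKM with IACS-9571 and 18.5 FPKM with DMSO. Of the genes known to be repressed by GFI1, 3 were compared: CSF1R (0.853 to 1.22 FPKM, near the filter), ID2 and the protease gene ELANE. All 3 lay below DMSO in the dTRIM24 group of 4 h, as did 52.2% of all genes. In the IACS-9571 group of 24 h all 3 lay below it too, as did 57.4%. All 3 lay above DMSO in the dTRIM24 group of 24 h, as did 96.8% of all genes (median 0.10, beside 0.26, and -0.21 with the trend taken out). In the IACS-9571 group of 4 h 2 of 3 lay above it, as did 50.1%. Of the MYB paralogs, MYBL2 had 91.9 FPKM with dTRIM24, 99.8 FPKM with IACS-9571 and 111 FPKM with DMSO at 4 h. CBFB, the RUNX1 partner, had 51.0 FPKM with dTRIM24, 42.6 FPKM with IACS-9571 and 48.3 FPKM with DMSO at 24 h. Of the GFI1 corepressors, KDM1A had 65.0 FPKM with dTRIM24, 53.3 FPKM with IACS-9571 and 54.2 FPKM with DMSO at 24 h. None of the 3 compared IRF8 targets and none of the 4 compared MYB targets other than MYC was past 1.5-fold against DMSO at either time. Of all genes 0.452% to 4.98% were, depending on the comparison, so lists this short say little.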

How the data were processed

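Bulk RNA-seq of 18 MOLM-13 samples was grouped by sample titles. The deposited table holds FPKM values, 1 mean per group. The submitters' processing notes name TopHat2, Cuffnorm and hg19; no version, annotation or strand setting is stated there. No counts were used, and depth is unknown. The labels' protocols describe ERCC spike-ins added by cell number.

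Spike-ins (92 rows) and 1704 rows of small RNAs, matched by name, were left out. Genes reaching 1 FPKM in some group were compared (11054), by differences of log2(FPKM + 1) and thresholds of 2-fold and 1.5-fold, without a test. The members and lists were chosen with earlier results of these data known. Named were the 9 factors, the 3 nearest genes of a factor, and of each list up to 4 compared genes with the largest absolute difference in the comparison described; genes given as under 1 FPKM, CEBPA-AS1 and the cell markers were named after their values were seen. GC content came from the longest coding GENCODE release 29 transcript for 10243 genes (92.7%). Alternatives covered pseudocount, filter, scaling and GC trend. Scripts were tested on simulated data. Software was Python 3.11.15 with numpy 2.4.6, scipy 1.17.1, pandas 2.3.3 and matplotlib 3.10.9.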

Additional observations from a re-analysis of the deposited data

How the results depend on the processing

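The alternatives were a pseudocount of 0.1 or 0.5 FPKM, a filter at 5 FPKM or none, centring on the median of compared genes, quantile normalization, rescaling to spike-ins or to equal totals, a cubic GC trend taken out, and a 1.5-fold threshold. No factor was past the threshold in any of the 9 comparisons under any of these, one choice at a time. The median of the factors moved by more than the spike-in SD in 4 comparisons. For dTRIM24 against DMSO at 24 h it was 0.26 as deposited, 0.0035 with centring, 0.0018 with quantile normalization, 0.067 with equal totals and -0.051 with the GC trend taken out. For dTRIM24 against IACS-9571 at 24 h it was 0.30, and 0.027, -0.0094, 0.029 and -0.022 in the same order. For 24 h against 4 h in IACS-9571 it was -0.27, and -0.0089, 0.0503, 0.0401 and 0.049. For 24 h against 4 h in DMSO it was -0.30, and -0.079, -0.078, -0.082 and -0.0072. The cause was not tested. Of 72 single differences 28 changed sign with the GC trend taken out, 21 with equal totals, 19 with quantile normalization, 17 with centring and 1 with spike-in rescaling. The pseudocounts and filters cannot change a sign. No paired analysis was possible because the table holds group means without values per replicate, and leaving out a replicate was not run for the same reason.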
